A study of Mus musculus with 12 samples.

Results

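Messenger RNAs on heavy polysomes were compared with those in the non-translating pool of the mouse testis at 1 day post partum (dpp). The comparison used all 6 arrays of that age, 3 for each pool, out of 12 in the study, and every probe set that is not an Affymetrix control. Both groups were testes of CD-1 mice, with no allele or treatment named besides the strain. Testes were rinsed with cycloheximide, which holds ribosomes on their mRNAs, then frozen and lysed, and the cytoplasmic extract was spun through a sucrose gradient taken off in 14 fractions of 750 μl. Fractions 1 to 3 made up the pool labelled non-translating, and fractions 7 to 13, the heavy polysomes, made up the pool labelled polysome. The arrays were Affymetrix 3′ expression arrays, labelled from 5 μg of RNA. The other 6 arrays hold the same pools at 4 dpp and served here for the estimate of spread and for the test of a difference between the ages.

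Actively translated mRNAs carry several ribosomes and sediment deep in a gradient, whereas mRNAs held in ribonucleoprotein particles stay near the top. The germ cells of the newborn mouse testis are prospermatogonia, which are arrested in the cell cycle and resume division in the days that follow, while Sertoli cells, the somatic cells that enclose them, divide. Translational control by RNA-binding proteins is a known feature of germ cells. The study, by its title, asks which developmental mRNAs become translated as the neonatal testis matures. Whole testis was used, so each value adds the germ cells to all somatic cells, and fewer cells of a type and less RNA per cell cannot be told apart. The labels call the replicates biological without saying which animals or how many pooled testes each holds, so a p-value here reflects the spread among these samples, which may be technical.

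A value below is the log2 difference, polysome minus non-translating, of log2(signal + 1), given ± its standard error (SE) from limma with n = 3 arrays per pool. Equal nominal amounts of RNA were labelled, so a difference ranks an mRNA among all mRNAs on these arrays and does not tell what share of its molecules was on polysomes. A gene is called when its limma p-value, adjusted by the Benjamini-Hochberg method over all 45037 probe sets, is under 0.05. Counts for a gene list are of its genes above the filter, and the shares of a list called higher and lower are to be read against those over all genes, 8.89% and 5.68%. Signals are in the arrays' linear units and are listed in the order of replicates 1, 2 and 3.

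Of the 45037 probe sets, 4324 were called (9.60%), 2537 higher and 1787 lower on polysomes. Taking each gene by its brightest probe set and leaving out dim ones left 13752 genes. Among these, 1222 were called higher on polysomes (8.89%) and 781 lower (5.68%), and 1670 of the 2003 called genes differed at least 2-fold. The median gene stood at 0.02. The filter uses the mean of all 12 arrays, and 3 of the called genes, Tex11 among them, would not pass it on the 6 arrays at 1 dpp. The 3 polysome signals lay entirely above or entirely below the 3 non-translating ones for 5678 genes (41.3%). Higher genes made up 61.0% of the called ones, 68.6% with arrays scaled to one median and 48.1% with quantile normalization, so which direction holds more genes depended on the scaling. The number of called genes was 1257, 958 and 1002 without non-translating array 1, 2 or 3, and 845, 1035 and 1881 without polysome array 1, 2 or 3.

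Calls were spread unevenly over signal. With the genes cut into 5 equal bins of mean signal, 2.29% of the dimmest bin were called higher and 2.76% lower, and 11.7% and 11.0% of the brightest. The plot of the ratio against mean signal shows the called genes on both sides at nearly every level above the dimmest genes.

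**Figure D1:**
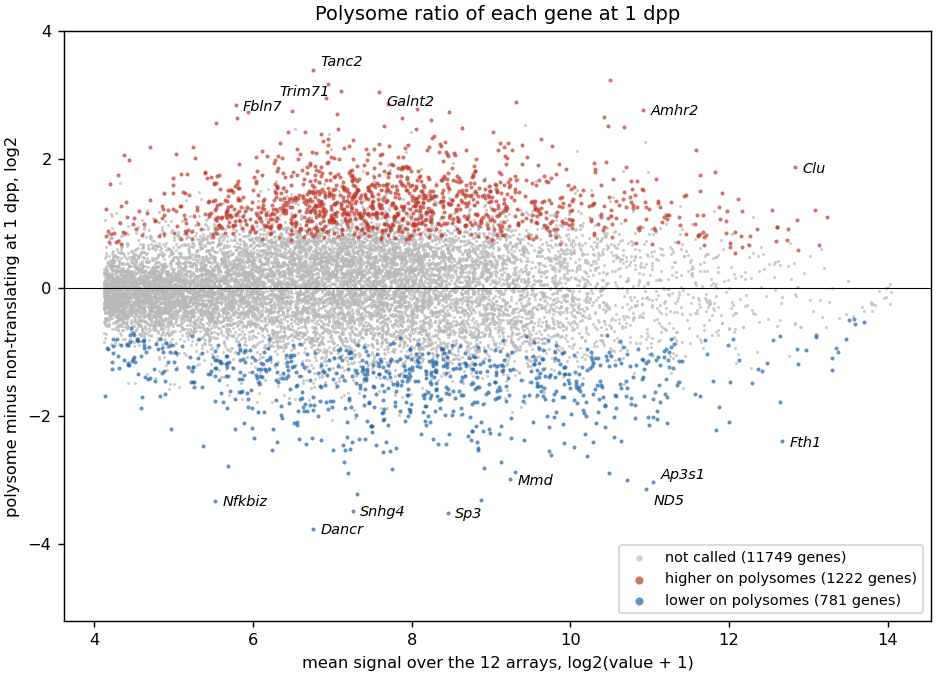
Polysome minus non-translating log2 difference (vertical axis) against mean log2 signal over the 12 arrays (horizontal axis) for 13752 genes at 1 dpp. Each point is a gene, red where called higher on polysomes (1222), blue where called lower (781) and grey where not called (11749), and Tanc2 at 3.40 and Dancr at -3.76 mark the ends of the named range.

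Among the 6 arrays, polysome array 3 stood apart from its group. Over the 13752 genes, polysome array 3 correlated with its group mates at 0.943 and 0.923, against 0.988 between the others, and non-translating arrays 1 and 2 correlated at 0.957, against 0.978 and 0.980 for the remaining pairs. With non-translating array 2 and polysome array 3 both left out, a pair chosen after the data were seen, 756 genes were called, 493 higher and 263 lower. Correlations across the pools ran from 0.860 to 0.918. They are across genes, which are not independent replicates. The median signal was alike, from 23.0 to 26.1. The mean signal of the spiked poly-A controls was 1457 on polysome array 3 and from 3153 to 6422 on the other 5. The ratio of 3′ to 5′ signal of Actb was 14.3, 8.33 and 14.5 on the non-translating arrays and 19.14, 16.1 and 32.8 on the polysome arrays, without overlap (exact permutation test, two-sided, p = 0.1, the smallest possible with 3 against 3). That of Gapdh was 8.997, 5.19 and 8.44 against 6.25, 5.14 and 15.9 (exact permutation test, p = 0.9). The 4 dpp arrays, which enter the spread and the test between ages, also varied. Non-translating array 1 at 4 dpp had ratios of 84.1 for Actb and 15.7 for Gapdh, against at most 7.1 and 4.04 on the others of that age. The spiked controls were at 626.4 and 423.4 on 4 dpp polysome arrays 1 and 3. With the 1 dpp arrays fitted alone, 2584 genes were called. The part of RNA integrity in the results was not tested.

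The genes most enriched on polysomes were led by Tanc2, which encodes a large scaffold protein of synapses. Its signal was 38.6, 37.0 and 36.3 on the non-translating arrays and 394.7, 531.7 and 314.3 on the polysome arrays. Every polysome value exceeded every non-translating value several-fold, and the difference was 3.40 ± 0.38 (adjusted p = 0.000722). Its other probe set above the filter stood at 0.44. Zbed6, a transcription factor that lies within an intron of Zc3h11a and represses Igf2, had 42.9, 54.0 and 56.6 against 504.6, 764.4 and 263.2 (3.17 ± 0.55, adjusted p = 0.00371). Polysome array 3 gave its lowest polysome value, still well above the non-translating ones. Trim71, an RNA-binding ubiquitin ligase and classic target of the let-7 microRNAs, had 50.3, 49.6 and 48.3 against 344.3, 583.4 and 377.0 (3.07 ± 0.26, adjusted p = 0.000526). The non-translating values of Trim71 were nearly equal, so the spread came from the polysome arrays. The other probe set of Trim71 stood at 0.76.

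Galnt2, which starts mucin-type O-glycosylation in the Golgi, had signals of 100, 82.1 and 113.7 in the non-translating pool and 686.4, 1099 and 726.8 on polysomes (3.05 ± 0.33, adjusted p = 0.000647). Its other probe sets stood much lower, at 0.80 and 0.84. The adaptor Garem1, which couples growth factor receptors to their signalling, stood at 2.97 ± 0.47. The secreted matrix protein Fbln7 stood at 2.84 ± 0.31. Amhr2, the receptor of anti-Müllerian hormone, was the brightest of these 12 genes, with 777.9, 588.8 and 810.8 against 4671, 3933 and 6474 (2.77 ± 0.39, adjusted p = 0.00147). Its pools were 6.83-fold apart on average and its other probe sets stood at 1.54 and 2.72. Tenm4, a very large teneurin of the cell surface (2.78 ± 0.59), Map1b, a microtubule-binding protein (2.76 ± 0.46), Bcan, a chondroitin sulphate proteoglycan (2.74 ± 0.47), the potassium channel Kcnh1 (2.74 ± 0.58) and the chaperone Dnajb14 (2.72 ± 0.66) completed the 12. Tenm4, Kcnh1 and Dnajb14 lost their calls without polysome array 2 (adjusted p = 0.0553, 0.0519 and 0.0930). Tenm4 also lost its call without polysome array 1, and Dnajb14 without polysome array 1 and without non-translating array 2 or 3. Other probe sets stood at 0.44 and 1.86 for Tenm4, 1.74 for Bcan, 1.31 for Kcnh1 and 0.87 for Dnajb14.

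At the other end stood Dancr, a long non-coding RNA that hosts small nucleolar RNAs. Its signal was 334.5, 508.4 and 334.4 in the non-translating pool and 31.0, 27.9 and 23.8 on polysomes, a difference of -3.76 ± 0.54 (adjusted p = 0.0016). The pools were 13.6-fold apart on average. Sp3, a transcription factor of GC boxes, had 1017, 382.9 and 1219 against 50.04, 106.9 and 57.4 (-3.51 ± 0.78, adjusted p = 0.0138). Non-translating array 2 held its lowest value of that pool and polysome array 2 its highest, and the call was lost without non-translating array 1 or 3 or polysome array 1 (adjusted p up to 0.0654). Nfkbiz, an inducible nuclear regulator of NF-κB targets, had 138.4, 191.6 and 74.9 against 13.6, 9.18 and 12.4 (-3.33 ± 0.41, adjusted p = 0.00101). Its polysome signals were near the dim end of the array, and the difference was -1.35 with a pseudocount of 64. The other probe set of Nfkbiz stood at -0.41.

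Col4a5, a basement membrane collagen, was at 822.8, 1306 and 783.3 against 79.8, 61.4 and 171.0 (-3.31 ± 0.38, adjusted p = 0.000785). Ap3s1, the small subunit of the AP-3 vesicle adaptor, was at 3339, 6398 and 3953 against 443.7, 435.7 and 785.6 (-3.04 ± 0.40, adjusted p = 0.00123). Mmd, a membrane protein of the progestin receptor family, was at 1356, 1783 and 1186 against 170.7, 167.5 and 196.5 (-2.99 ± 0.33, adjusted p = 0.000735). For these 3 genes the lowest non-translating signal was above the highest polysome signal by a wide margin, and they stayed called whichever array was left out. Other probe sets stood at -0.88 for Col4a5 and at -1.14 and -1.16 for Mmd. Arpc1a, a subunit of the actin-nucleating Arp2/3 complex, stood at -2.90 ± 0.56. ND5, encoded by mitochondrial DNA and translated on mitochondrial ribosomes, stood at -3.15 ± 0.55, and the Gt(ROSA)26Sor transcript, whose locus is widely used for transgenes, at -3.23 ± 0.55. Snhg4 and Snhg6, described below, and Col12a1, a fibril-associated collagen (-2.90 ± 0.77), completed the 12. Col12a1 had 20.6 and 22.7 on polysome arrays 1 and 2 but 167.1 on array 3, and its call was lost without non-translating array 2 or 3 or polysome array 1 or 2 (adjusted p up to 0.141). The other probe set of Col12a1 stood at -0.03. Of these 24 genes with the largest differences, 19 stayed called whichever array was left out.

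**Figure D2:**
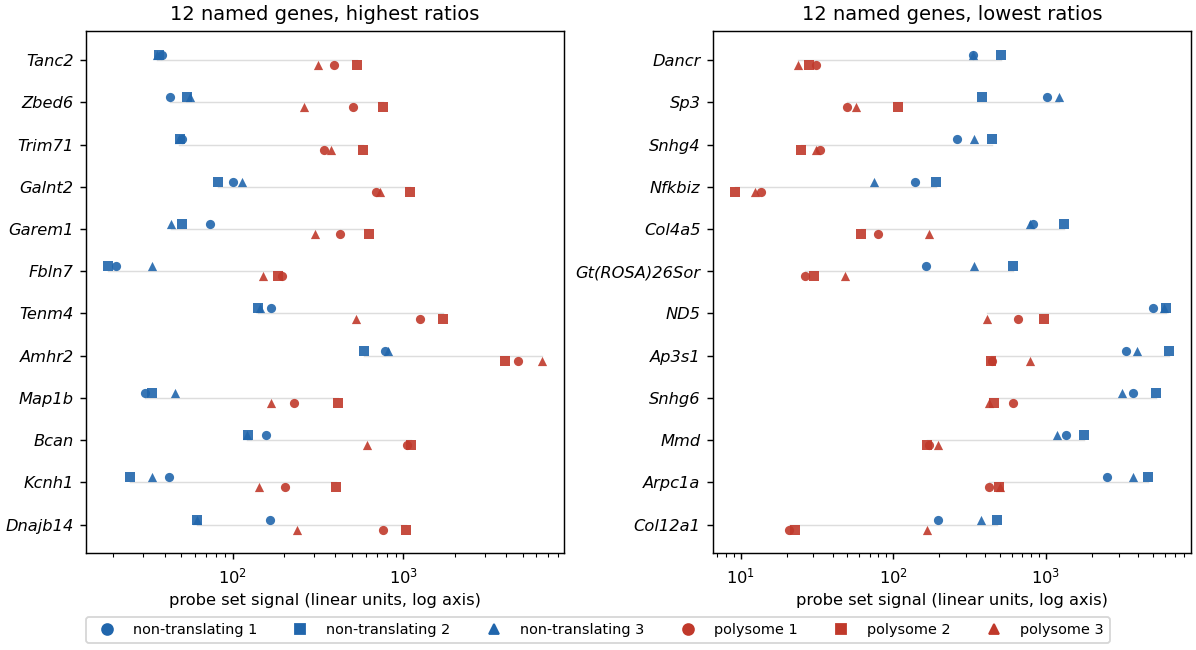
Signal of each 1 dpp array (horizontal log axis, linear units) for the 12 named genes with the highest and the 12 with the lowest polysome ratio. Blue marks are the non-translating arrays, red marks the polysome arrays and the shape gives the replicate. Red and blue do not overlap in any row because that was a condition for choosing these genes. Trim71 shows non-translating signals of 48.3 to 50.3 against 344.3 to 583.4 on polysomes.

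Coding and non-coding genes were counted separately. Of 13156 protein-coding genes, 1219 were called higher (9.27%) and 678 lower (5.15%), with a median of 0.04. Of 451 long non-coding RNA genes, 87 were called lower (19.3%) and 1 higher, the clone-named A930004D18Rik at 1.27, with a median of -0.32, and 362 lay below 0. A930004D18Rik was named after its value was seen. Of the 88 called non-coding genes, 59 have clone-like symbols. The number called lower was between 56 and 63 when single arrays were left out, lowest without polysome array 1. Of 55 transcribed pseudogenes, 1 was called higher and 4 lower.

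The listed non-coding RNAs include hosts of small nucleolar RNAs, which guide modification of ribosomal RNA and are released from the introns of these transcripts, and nuclear or imprinted transcripts. Of the 33 above the filter, 19 were called lower (57.6%) and 0 higher, at a median of -1.43 (-0.88 with a pseudocount of 64). The 14 genes named Snhg, for small nucleolar RNA host gene, had a median of -1.93, and 11 were called lower. Snhg4 had signals of 262.9, 442.8 and 336.0 against 32.9, 24.7 and 31.3 on polysomes (-3.48 ± 0.35, adjusted p = 0.000647). Snhg6 was far brighter, at 3734, 5288 and 3142 against 607.8, 456.1 and 425.1 (-3.01 ± 0.39, adjusted p = 0.00112), and on both genes the pools were widely separated. Snhg12 stood at -2.44 ± 0.55 and lost its call without non-translating array 2 or 3 or polysome array 1 or 2 (adjusted p up to 0.0601). Gas5, a growth-arrest transcript that carries a terminal oligopyrimidine tract and was named after its values were seen, stood at -2.11 ± 0.40 on its brightest probe set, with -1.95, -0.03 and 1.04 on others. Airn, the antisense transcript of Igf2r, stood at -2.37 ± 0.25, with other probe sets at 1.33, -0.26 and -0.69. Whether the non-coding RNA in the deep fractions was on ribosomes was not measured.

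**Figure D3:**
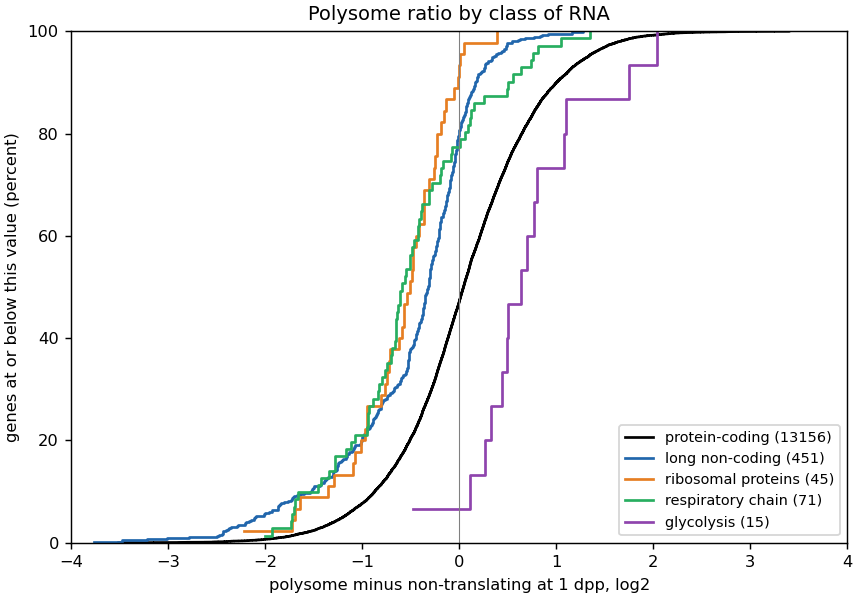
Cumulative percent of genes (vertical axis) at or below each polysome minus non-translating log2 difference (horizontal axis) at 1 dpp, for protein-coding genes, long non-coding RNAs and 3 of the gene lists, with numbers of genes in the key. The median is 0.04 for protein-coding genes, -0.32 for long non-coding RNAs, -0.51 for ribosomal proteins, -0.59 for the respiratory chain and 0.64 for glycolysis.

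Among mRNAs of the translation machinery, those of the cytosolic ribosomal proteins were mostly lower in signal on polysomes. Their mRNAs belong to the TOP class, which begins with a cytosine and a run of pyrimidines and leaves polysomes when the growth-sensing kinase mTOR is inactive. Of 83 listed genes, 45 had a probe set with 1 symbol above the filter, and of these 19 were called lower (42.2%, against 5.68% of all genes) and 0 higher, 42 lay below 0 and the median was -0.51 (-0.26 with quantile normalization). Between 11 and 13 were called lower without one array, the fewest without non-translating array 2. Rpl22l1, a paralogue of Rpl22, had the largest difference, with 5030, 8098 and 5926 against 1447, 1297 and 1271 (-2.22 ± 0.26, adjusted p = 0.000927). Rpl14 had 547.2, 663.4 and 809.1 against 184.2, 190.4 and 228.3 (-1.73 ± 0.25, adjusted p = 0.0016). The pools did not overlap for either gene, and both stayed called whichever array was left out. Rpl37 stood at -1.69 ± 0.38, a call lost without non-translating array 2 (adjusted p = 0.0568), and Rps27l, a paralogue of Rps27, at -1.64 ± 0.32. Ribosomal protein genes have many processed pseudogene copies, and a probe set can take up signal from near-identical sequences.

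Brightness went with the size of the difference in this list. The 23 ribosomal protein genes at or above the list's median signal had a median difference of -0.37 with 7 calls, and the 22 below it had a median of -0.76 with 12 calls, a split chosen after the values were seen. The very bright Rpl41, for instance, was at 16830, 16820 and 17960 against 16820, 16030 and 13600, while the largest signal on any array of this comparison was 22430. Whether the brightest probe sets were near the ceiling of the array was not tested.

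The annotated 5′ ends of several of these genes are given here because the TOP class is defined by them. Each line holds 15 bases before the RefSeq start and 15 from it, on the gene's strand in build GRCm38.p6, at chr9:120571502-120571531 for Rpl14, chr3:90213634-90213663 for Rps27, chr17:33955651-33955680 for Rps18, chr11:114668565-114668594 for Rpl38, chr3:28805493-28805522 for Rpl22l1 and chr11:105589971-105590000 for Tanc2. Capitals mark a run that begins with C exactly at the annotated start and goes on with at least 4 pyrimidines.
Rpl14: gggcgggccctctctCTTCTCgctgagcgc
Rps27: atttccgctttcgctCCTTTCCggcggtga
Rps18: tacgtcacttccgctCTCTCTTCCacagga
Rpl38: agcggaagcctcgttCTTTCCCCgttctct
Rpl22l1: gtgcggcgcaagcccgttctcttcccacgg
Tanc2: ttcccatccccctcgcgctcacctcccggc

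Rpl14, Rps27 (-1.08 ± 0.30) and Rps18 (-0.51 ± 0.13) have such a run at the start and were called lower, the last pair losing their calls whichever of the 6 arrays was left out. Rpl38 has one too and was not called (-0.25 ± 0.18, adjusted p = 0.442). Rps6, whose sequence is not shown, also has such a run and was not called (-1.35 ± 0.46, adjusted p = 0.0841). Rps27, Rps18, Rpl38 and Rps6 were named after their values were seen, so the genes shown do not stand for all that have the run. Rpl22l1, with the lowest ratio of the list, and Tanc2, the most enriched gene, have none at the annotated base. The run was found at 823 of 32851 starts in the table (2.51%) and at 9 of the 40 ribosomal protein genes that have a start there (22.5%). The 9 had a median of -0.37 with 3 calls, and the 31 without it a median of -0.59 with 15 calls. Over all coding genes with a start in the table, 8.91% of 303 with the run were called lower against 5.12% of 10334 without it, and 9.90% against 9.05% were called higher. Allowing the run to begin within 5 bases of the start gave 5.51% of 2522 genes against 5.14%. With at least 7 pyrimidines it was 8.51% of 94 genes.

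Other TOP mRNAs, chiefly elongation factors, subunits of initiation factor eIF3 and the nascent-chain complex, were also mostly below 0. Of 23, 20 lay below 0, 10 were called lower (43.5%) and 1 higher (4.35%), at a median of -0.81, and between 5 and 7 were called lower without one array, the fewest without polysome array 1. Naca, a subunit of the nascent polypeptide-associated complex, had 8740, 9990 and 8947 against 2708, 2488 and 2778 (-1.79 ± 0.15, adjusted p = 0.000526). Its 3 values within each pool were nearly equal. Eif3h (-1.69 ± 0.24), Eif3m (-1.60 ± 0.42) and Eif3e (-1.27 ± 0.27) are eIF3 subunits. Eif3m lost its call without non-translating array 2 or 3 or any 1 polysome array (adjusted p up to 0.123). Pabpc1, the cytoplasmic poly(A)-binding protein, had 6904, 7321 and 10870 against 3250, 3173 and 3943, a difference of -1.25 ± 0.37 that missed the threshold (adjusted p = 0.0520). The elongation factor Eef1a1 was at -0.27 ± 0.17 and was not called.

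The list of translation initiation factors and mTORC1 components had a median above 0. Of 42, 5 were called higher (11.9%, against 8.89% of all genes) and 2 lower (4.76%), at a median of 0.25, and 3 were called higher whichever array was left out. Eif3b, the scaffold subunit of eIF3, had 342.2, 372.0 and 424.7 against 1248, 1393 and 1744 (1.93 ± 0.26, adjusted p = 0.00128), without overlap. Eif3b thus differed in sign from Eif3h, Eif3m and Eif3e of the same complex. Eif6, which keeps the ribosomal subunits apart, stood at 1.57 ± 0.33 with another probe set at -0.16. Eif2b2, part of the guanine nucleotide exchange factor of eIF2, stood at 1.5 ± 0.23. Eif1b, a paralogue of the start-codon factor eIF1, was lower at -1.52 ± 0.28.

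Nuclear-encoded subunits of the respiratory chain and ATP synthase were mostly below 0. Of 71 above the filter, 12 were called lower (16.9%, against 5.68% of all genes) and 2 higher (2.82%, against 8.89%), 55 lay below 0 and the median was -0.59. Between 7 and 14 were called lower without one array, 7 without non-translating array 2, and 29 with the 1 dpp arrays fitted alone. The ATP synthase subunit Atp5g2 had 1602, 2174 and 1899 against 457.7, 423.0 and 528.1 (-2.0 ± 0.28, adjusted p = 0.0014). Atp5j (-1.93 ± 0.27) and Atp5l (-1.74 ± 0.32), of the same enzyme, and Ndufa3 of complex I (-1.73 ± 0.36) were also lower, and Ndufa3 lost its call without non-translating array 2 (adjusted p = 0.0503). The members called higher were Atp5d of ATP synthase (0.81) and Ndufv1 of complex I (1.35). Samm50, an importer of the mitochondrial outer membrane named after its values were seen, had 700.6, 618.4 and 687.8 against 3979, 3913 and 3630 (2.52 ± 0.26, adjusted p = 0.000647).

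Glycolytic enzymes lay on the other side. Of 15, 4 were called higher (26.7%) and 0 lower, 14 lay above 0 and the median was 0.64. Pfkl, the liver-type phosphofructokinase, stood at 2.04 ± 0.32 with another probe set at 0.03. Ldhb, a lactate dehydrogenase subunit, had 2256, 1633 and 1963 against 7625, 6129 and 5949 (1.75 ± 0.30, adjusted p = 0.0035), and its other 3 probe sets stood between 0.88 and 1.28. Pkm, pyruvate kinase (1.08 ± 0.27), and Tpi1, triosephosphate isomerase (0.70 ± 0.19), lost their calls in 5 and in all 6 of the fits without one array (adjusted p up to 0.0912 and 0.122). Without one array, 2 or 3 of the list were called.

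Of 31 proteasome subunits 5 were called higher (16.1%, against 8.89% of all genes) and 0 lower (against 5.68%), at a median of 0.27. They were mainly regulatory subunits, which unfold and admit substrates. Psmd3 had 376.2, 298.2 and 360.1 against 1793, 1491 and 1660 (2.26 ± 0.30, adjusted p = 0.00128), and Psmd11 (1.39 ± 0.22) and Psmc4 (1.26 ± 0.21) also stayed called whichever array was left out. Psmd6 (1.11 ± 0.27) lost its call in 5 of these 6 fits, all but the one without polysome array 3 (adjusted p up to 0.0944). Of 28 genes listed as cytosolic chaperones, 4 were called lower (14.3%) and 0 higher, at a median of -0.20. Hspe1, which works in mitochondria as the small partner of Hsp60, had 2626, 3947 and 3074 against 897.7, 839.2 and 1018 (-1.79 ± 0.27, adjusted p = 0.00191), and the others were prefoldin subunits, which hand actin and tubulin to their folding chamber. Pfdn5 stood at -1.47 ± 0.24, while Pfdn2 (-1.34 ± 0.38) and Pfdn1 (-1.25 ± 0.32) lost their calls in all fits but 1 (adjusted p up to 0.167 and 0.0837). Without one array, 3 to 4 proteasome subunits and 2 to 4 chaperones were called. In these fits the median ran from 0.0 to 0.47 for the proteasome and from -0.52 to -0.05 for the chaperones. The proteasome median over the non-translating mean was 0.13, -0.08 and 0.69 on polysome arrays 1, 2 and 3.

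mRNAs with an iron-responsive element are bound by iron regulatory proteins when iron is scarce, which blocks initiation where the element is in the 5′ untranslated region and stabilises the mRNA where it is in the 3′ one. Of 8, 4 were called lower (50%) and 0 higher, at a median of -0.95. Fth1, the ferritin heavy chain with a 5′ element, had 12300, 14130 and 12310 against 2618, 2575 and 2163 (-2.40 ± 0.23, adjusted p = 0.000647), and its other probe set stood at -2.51. Its signals within each pool were alike, and the pools were 5.27-fold apart on average. Tfrc, the transferrin receptor with 3′ elements, was also lower (-2.54 ± 0.49, adjusted p = 0.00696), with its other probe set at -0.21. Alas2, the erythroid enzyme of haem synthesis (-2.19 ± 0.53), and Slc40a1, the iron exporter (-1.02 ± 0.27), both with a 5′ element, lost their calls in all fits without one array but 1 (adjusted p up to 0.0707 and 0.1202). Without one array 2 of the list were called lower, except 4 without polysome array 3. Of 11 erythroid genes above the filter, 2 were called lower, Tfrc and Alas2 themselves, and 0 higher, while the others stood between -0.81 (Car2) and 0.40 (Fech). The summed signal of the 5 measured erythroid markers ran from 998.3 to 1506 on the non-translating arrays and from 196.1 to 324.2 on the polysome arrays, but Tfrc and Alas2 are among them. The other 3, Slc4a1, Epb42 and Hba-a1, summed to 54.1, 36.1 and 42.2 against 33.5, 38.0 and 27.8, with overlap between the pools. Epb42 and Hba-a1 were below the filter, and Slc4a1 ran only from 14.4 to 31.8. That sum is thus of dim signals and cannot tell whether erythroid RNA differed between the pools. The part of erythroid cells in the result was not tested.

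Stress-related mRNAs were mixed. Of 26 mRNAs of the integrated stress response or with upstream reading frames, 6 were called higher (23.1%) and 1 lower (3.85%), at a median of 0.43. Asns, asparagine synthetase, had 105.5, 140.5 and 119.6 against 498.8, 530.8 and 344.1 (1.89 ± 0.28, adjusted p = 0.00191). The aminoacyl-tRNA synthetases Eprs (2.10 ± 0.56) and Gars (1.31 ± 0.35) and the regulator Atf5 (-1.38 ± 0.34) lost their calls without most arrays (adjusted p up to 0.131, 0.127 and 0.102), and between 2 and 6 of the list were called higher without one array, 2 without non-translating array 2 or polysome array 1. Atf4, whose upstream frames repress it in unstressed cells and which was named after its values were seen, stood at -0.62 ± 0.37 and was not called (adjusted p = 0.360). Of 26 mRNAs of endoplasmic reticulum stress 4 were called higher (15.4%) and 0 lower, led by Creld2 (1.82 ± 0.35), a secreted chaperone-like protein, and Dnajc3 (1.52 ± 0.27), an inhibitor of the kinase PERK. The oxidase Ero1a (1.40 ± 0.36) and Sel1l of protein degradation (1.14 ± 0.27) were called in the full set and in 1 of the 6 fits without an array (adjusted p up to 0.103 and 0.0923), and 2 or 3 of the list were called higher without one array. Of 36 immediate early genes, 3 were called lower (8.33%), Nfkbiz, Btg2 (-1.33 ± 0.39) and Ier3 (-1.20 ± 0.29), and 0 higher, and only Nfkbiz kept its call without each array in turn.

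Of 72 RNA-binding regulators of translation and deadenylation, 10 were called higher (13.9%) and 9 lower (12.5%), at a median of -0.12. Of the Argonaute proteins, which carry microRNAs, 3 of 4 were called higher. Ago1 stood at 1.34, Ago3 at 1.13 and Ago2 at 1.08 (limma, adjusted p = 0.00426, 0.0467 and 0.0137), while Ago4 stood at -0.23. Of the 3 genes of their Tnrc6 partners, Tnrc6a was called higher at 1.33, while Tnrc6b (0.38) and Tnrc6c (0.49) were not called. The Argonaute and Tnrc6 genes were picked from the list outside the rule for named genes. Their calls without single arrays are not given gene by gene. Rbfox2, a splicing regulator, stood at 2.02 ± 0.43, but its other 3 probe sets stood between 0.00 and 0.49. Ybx1, a cold-shock protein that packages mRNA, had 6948, 8948 and 8194 against 1569, 1685 and 2441 (-2.10 ± 0.46, adjusted p = 0.0121), with its other probe set at 0.04. Cpeb4, which binds cytoplasmic polyadenylation elements, stood at -1.89 ± 0.53 with its other probe set at -0.22. Cnot7, a deadenylase of the CCR4-NOT complex, stood at -1.54 ± 0.33 with other probe sets at -2.92 and -0.98. Rbfox2, Ybx1, Cpeb4 and Cnot7 each lost their calls without polysome array 1, among others (adjusted p up to 0.0558, 0.0579, 0.164 and 0.0546). The list was unstable to single arrays, with 1 to 8 called higher, 1 without polysome array 2, and 1 to 9 called lower, 1 without non-translating array 2 or polysome array 1.

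Targets of let-7, the microRNA family that restrains growth genes in differentiated cells, and the oncofetal proteins that oppose it had 4 of 23 called higher (17.4%) and 0 lower, at a median of -0.01. Besides Trim71 these were the cyclins Ccnd2 and Ccnd1, which drive entry into the cell cycle, and Arid3b, a DNA-binding protein (1.12 ± 0.21). Ccnd2 had 1678, 1608 and 1478 against 4906, 5295 and 5233 (1.70 ± 0.28, adjusted p = 0.00304), and its other 6 probe sets stood between 0.85 and 3.23. Ccnd1 stood at 1.28 ± 0.34, a call lost whichever of the 6 arrays was left out. Lin28a, which blocks let-7 processing, was dim, with 10.6, 8.56 and 11.9 against 17.3, 16.4 and 29.8 (0.93 ± 0.34, adjusted p = 0.113). Igf2bp1, named after its values were seen, stood at -0.34 ± 0.38 and was not called. Of 69 genes of the cell cycle and replication, 2 were called higher (2.90%), Mcm6 of the replicative helicase (1.16 ± 0.26) whose call was lost without non-translating array 1 or polysome array 2, and the condensin subunit Ncapd2 (1.16), and 3 lower (4.35%), the cytokinesis genes Anln (-1.73 ± 0.46) and Ect2 (-1.49 ± 0.41) and the hyaluronan receptor Hmmr (-1.40 ± 0.31). The 3 lower ones all lost their calls without polysome array 1 or 2 (adjusted p up to 0.138, 0.148 and 0.0643).

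Of 40 genes of undifferentiated germ cells and prospermatogonia, 4 were called higher (10.0%, against 8.89% of all genes) and 1 lower (2.50%, against 5.68%), at a median of 0.27, and between 1 and 3 were called higher without one array, 1 without non-translating array 2 or 3 or polysome array 1 or 2, and 1 with non-translating array 2 and polysome array 3 both left out. Sall4, a zinc-finger factor needed by germ line stem cells, had 244.1, 272.7 and 304.5 against 667.6, 943.0 and 771.1 (1.52 ± 0.31, adjusted p = 0.00818), with its other probe set at 2.65. Its pools did not overlap and it stayed called whichever array was left out. Taf4b, a gonad-enriched subunit of TFIID, had 236.7, 159.9 and 169.7 against 495.6, 618.9 and 343.4 (1.34 ± 0.29, adjusted p = 0.0128). Elavl2, an RNA-binding protein, had 257.4, 252.2 and 223.1 against 540.8, 521.1 and 453.0 (1.04 ± 0.25, adjusted p = 0.0189). Taf4b and Elavl2 lost their calls without non-translating array 2 or 3 or polysome array 1 or 2 (adjusted p up to 0.0649 and 0.0848). Dppa2, a pluripotency-associated factor, had 31.4, 57.9 and 40.1 against 13.8, 12.7 and 22.3 (-1.35 ± 0.26, adjusted p = 0.0066).

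Of 40 genes of spermatogonial differentiation and early meiosis, 3 were called higher (7.50%) and 3 lower (7.50%), at a median of -0.03. The higher ones were Ccnd1 and Ccnd2, given above, and Rhox13, an X-linked homeobox gene, with 43.8, 77.3 and 60.9 against 142.2, 135.0 and 147.4 (1.24 ± 0.32, adjusted p = 0.0278). The polysome values of Rhox13 were nearly equal, but the call was lost without 5 of the 6 arrays, all but non-translating array 2 (adjusted p up to 0.114). The lower ones were Lmo1, a transcriptional cofactor (-1.69 ± 0.33), Tex12, a synaptonemal complex protein (-2.05 ± 0.56), and Tex11, an X-linked meiotic gene (-0.91 ± 0.20). Tex11 had a mean log2 signal of 3.70 over the 1 dpp arrays, under the filter of 4.12 that it passed on the mean of both ages, and without it 2 genes of the list were called lower. Tex12 had 119.7, 490.6 and 271.5 against 36.1, 46.2 and 130.4, so polysome array 3 overlapped non-translating array 1. Its call was lost without non-translating array 2 or 3 or polysome array 1 or 2 (adjusted p up to 0.159), and that of Tex11 without non-translating array 3 or polysome array 1 (0.0645).

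Kit, the receptor that marks differentiating spermatogonia, had 20.6, 55.4 and 52.9 against 38.6, 30.6 and 93.9 (0.29 ± 0.71, adjusted p = 0.860). Stra8, a retinoic acid response gene of meiotic entry, had 60.3, 25.6 and 48.8 against 80.9, 56.4 and 139.3 (1.01 ± 0.48, adjusted p = 0.226). The pools overlapped for both genes. Sohlh2 (0.91 ± 0.34) and Sohlh1 (0.24 ± 0.29), transcription factors of early differentiation, were not called, and the pools were separate for Sohlh2 and overlapped for Sohlh1. Gfra1, a receptor for the stem cell factor GDNF, had 64.3, 69.0 and 86.9 against 138.5, 169.2 and 348.0 without overlap, but its difference of 1.46 ± 0.49 missed the threshold (adjusted p = 0.0855). Its co-receptor Ret (0.23 ± 0.27), Zbtb16 (0.42 ± 0.38), a repressor of undifferentiated spermatogonia whose other probe sets stood at 1.79 and 1.69, and Dnmt3l (-0.15 ± 0.23), a cofactor of de novo DNA methylation, were not called.

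Several germ cell genes varied more within a pool than between the pools. Dazl, a germ cell translation activator, had 250.4, 852.3 and 767.8 on the non-translating arrays and 160.2, 128.0 and 1087 on the polysome arrays (-0.96 ± 0.84, adjusted p = 0.555). Its other probe set stood at 0.61, of opposite sign. Ddx4, a germ granule helicase, had 116.2, 185.6 and 201.4 against 99.3, 62.7 and 375.7 (-0.29 ± 0.60). Piwil2, which binds piRNAs, had 84.2, 185.4 and 210.8 against 83.2, 90.3 and 179.5 (-0.43 ± 0.47). Non-translating array 1 and polysome arrays 1 and 2 were low for all 3 genes and the other 3 arrays high. Mael, another piRNA factor, named with the next genes after the values were seen, had 333.8, 1164 and 637.9 against 134.2, 116.5 and 436.8 (-1.72 ± 0.67). Genes of other cells were high and low on the same arrays. Among them, the Sertoli cell growth factor Kitl was at 210.8, 661.7 and 552.8 against 172.2, 199.5 and 977.3. This probe set of Kitl stood at -0.40, and its other 3 stood at 1.27, 1.16 and 1.01, of opposite sign. The Leydig cell enzyme Cyp17a1 was at 166.3, 271.0 and 305.5 against 145.7, 139.2 and 491.5. Of 27 genes of germ granules and the piRNA pathway, 0 were called higher and 1 lower (3.70%), Asz1 (-1.03 ± 0.25), at a median of 0.25, and Asz1 lost its call without non-translating array 1 or 2 or polysome array 1 or 2 (adjusted p up to 0.0954).

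**Figure D4:**
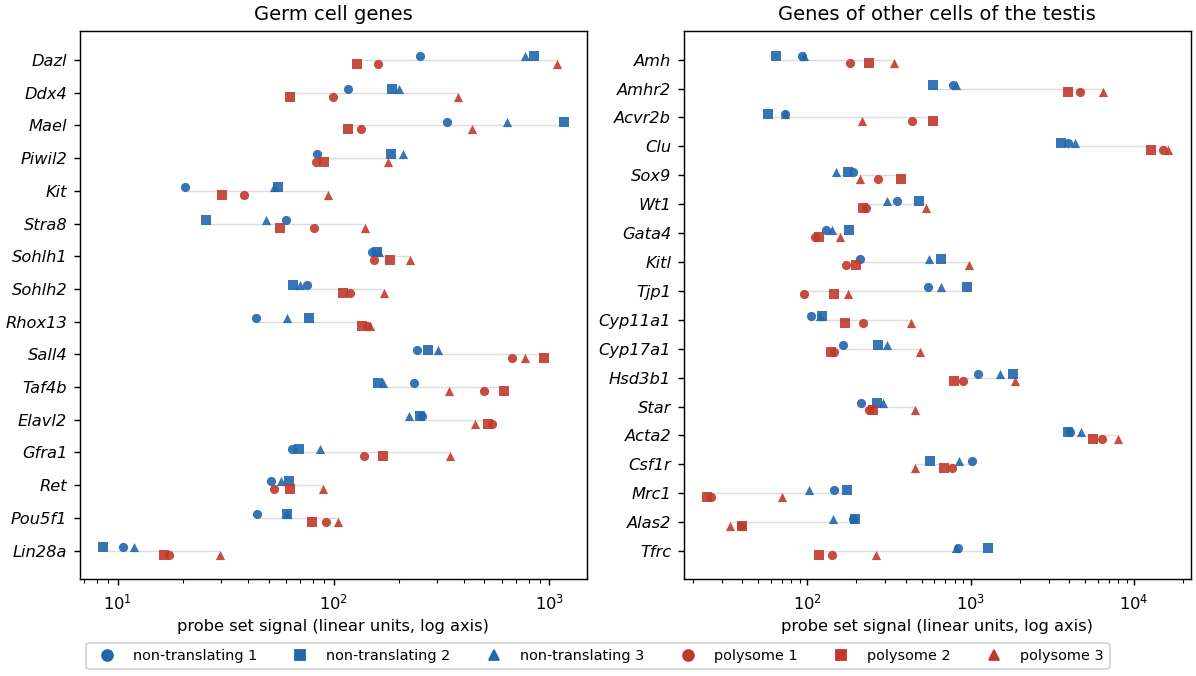
Signal of each 1 dpp array (horizontal log axis, linear units) for germ cell genes and for genes of other cells of the testis, blue for the non-translating and red for the polysome arrays, with the shape giving the replicate. Sall4 and Clu separate the pools, while Dazl runs from 128.0 on polysome array 2 to 1087 on polysome array 3.

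Of 37 Sertoli cell genes, 7 were called higher on polysomes (18.9%, against 8.89% of all genes) and 1 lower (2.70%), at a median of 0.47. Clu, a secreted chaperone abundant in Sertoli cells, had 3948, 3591 and 4327 against 15110, 12630 and 16010 (1.88 ± 0.26, adjusted p = 0.0014), and its other 3 probe sets stood between 1.71 and 1.84. Amh, the hormone that removes the Müllerian ducts in males, had 93.2, 64.8 and 94.9 against 182.5, 237.2 and 337.5 (1.55 ± 0.33, adjusted p = 0.0117) and lost its call without non-translating array 2 (adjusted p = 0.0566). The hormone and its receptor Amhr2 were thus both higher on polysomes. Espn, an actin bundler of Sertoli cell junctions, stood at 1.48 ± 0.37, with 103.1 on polysome array 2 but 30.9 on array 3, and lost its call in 5 of the 6 fits without one array (adjusted p up to 0.105). Tjp1, a tight junction scaffold, was lower, with 548.5, 952.2 and 661.1 against 94.9, 145.9 and 176.6 (-2.37 ± 0.32, adjusted p = 0.0014). Sox9, the Sertoli cell determinant, stood at 0.70 ± 0.28 and was not called (adjusted p = 0.142), with its other probe set at -1.66. Between 3 and 6 of the list were called higher without one array, 3 without non-translating array 2 and 4 without polysome array 1 or 2, and 2 with non-translating array 2 and polysome array 3 both left out.

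Markers of the cells that the tissue should hold were present. Of the 14 Sertoli cell markers 13 were above the filter, and their summed signal ran from 12370 to 15510 in the non-translating pool and from 20500 to 38040 on polysomes. Of the 14 markers of prospermatogonia 12 had a probe set with 1 symbol and 9 passed the filter, with Dppa3, Piwil4 and Tdrd1 below it, and the summed signal ran from 1414 to 2991 and from 1940 to 3530. All 4 measured Leydig cell markers passed, with 1597 to 2466 and 1357 to 3241. The 6 peritubular markers gave 5117 to 6256 and 6596 to 9189, the endothelial markers 658.7 to 867.4 and 904.3 to 1064, and the macrophage markers 1130 to 1492 and 982.4 to 1129. Single genes made up much of the polysome sums of Sertoli, peritubular and endothelial markers, so those sums do not stand for all their markers. On the polysome arrays Clu alone had 15110, 12630 and 16010, and Cldn5 823.8, 765.9 and 477.5. Acta2, a peritubular marker named after its values were seen, had 6361, 5575 and 7936. Neither measured marker of the epididymis or efferent ducts passed the filter. The part of these levels in the results was not tested.

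Of 16 Leydig cell and steroid genes 2 were called higher (12.5%), the lipoprotein receptor Scarb1 (1.34 ± 0.21) and the hedgehog effector Gli1 (1.25 ± 0.24), and 2 lower (12.5%), the matrix protein Thbs2 (-1.28 ± 0.32) and the peroxisomal oxidase Hao2 (-1.05 ± 0.29). The latter pair each stayed called in 1 of the 6 fits without one array. The steroidogenic Cyp11a1 had 105.2, 123.7 and 120.3 against 220.7, 170.6 and 431.4 and was not called (1.12 ± 0.49, adjusted p = 0.184). The cholesterol transporter Star stood at 0.25 ± 0.35, with other probe sets at 0.59 and 1.34. Of 14 endothelial genes 1 was called higher (7.14%), the tight junction claudin Cldn5, with 238.0, 157.6 and 157.9 against 823.8, 765.9 and 477.5 (1.88 ± 0.27, adjusted p = 0.0016). Of 19 macrophage genes 3 were called lower (15.8%), the mannose receptor Mrc1 (-1.93 ± 0.47), the platelet factor Pf4 (-1.24 ± 0.36) and the transcription factor Maf (-1.06 ± 0.27), with 0 called without non-translating array 1 or 2 or polysome array 1 and 1 without the others. Of 18 peritubular and fibroblast genes, 1 was called lower (5.56%), the myosin kinase Mylk (-1.21 ± 0.32), and 0 higher, and Mylk lost its call without non-translating array 2 or 3 or polysome array 1 or 2 (adjusted p up to 0.123).

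Growth factors and receptors of the testis had 8 of 66 called higher (12.1%) and 3 lower (4.55%), at a median of 0.22. Besides Amhr2, the activin receptor Acvr2b had 72.7, 57.9 and 73.1 against 438.1, 586.3 and 215.6 (2.48 ± 0.54, adjusted p = 0.0127), and lost its call without non-translating array 2 or polysome array 1 or 2 (adjusted p up to 0.0605). Acvr2a, the other type II activin receptor, named after its values were seen, stood at -0.32 ± 0.24 and was not called. The other probe set of Acvr2a stood at 0.79, of opposite sign. Erbb2, a receptor tyrosine kinase, stood at 1.86 ± 0.42, a call lost without non-translating array 2 or 3 or polysome array 1 or 2. Rspo1, a WNT agonist of gonad development, was lower, with 240.6, 230.6 and 242.4 against 67.7, 71.7 and 49.6 (-1.92 ± 0.43, adjusted p = 0.0146), and its call was lost without non-translating array 3 (adjusted p = 0.0544). Between 3 and 7 of the list were called higher without one array, 3 without non-translating array 2 or polysome array 1. Tyro3, a receptor that Sertoli cells use to clear dying germ cells, was named after its values were seen and had 166.1, 226.2 and 167.9 against 1071, 1009 and 1062 (2.5 ± 0.26, adjusted p = 0.000647), with nearly equal signals on the polysome arrays.

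Of 65 extracellular matrix genes, 15 were called lower (23.1%, against 5.68% of all genes) and 3 higher (4.62%), at a median of -0.29. Besides Col4a5 and Col12a1, the lower ones included the fibrillar collagens Col5a2 (-1.68) and Col1a1 (-1.51), the proteoglycan Vcan (-1.67), the basement membrane linker Nid1 (-1.67) and tenascin, Tnc (-1.62). Those called higher were Fbln7, the transmembrane collagen Col23a1 (2.20 ± 0.29), whose other probe sets stood at 3.62 and 2.97, and Col13a1 (1.14), also a transmembrane collagen. The number called lower was 4 without non-translating array 2 or 3 or polysome array 1, 6 without polysome array 2, 10 without non-translating array 1 and 16 without polysome array 3.

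Of 21 genes of sterol synthesis, 3 were called higher (14.3%) and 0 lower, at a median of 0.29. Scap, the sterol sensor that escorts SREBP from the endoplasmic reticulum, had 344.2, 381.4 and 370.1 against 1642, 1551 and 1965 (2.23 ± 0.24, adjusted p = 0.000647), with its other probe set at -0.25. Its client Srebf2 (1.38 ± 0.36) and the squalene-forming enzyme Fdft1 (0.85 ± 0.23) lost their calls whichever of the 6 arrays was left out (adjusted p up to 0.114 and 0.113), so that 1 or 2 of the list were then called. Tgoln1, a protein of the trans-Golgi network named after its values were seen, had 416.3, 442.9 and 420.9 against 1894, 2025 and 2522 (2.32 ± 0.25, adjusted p = 0.000647), and its other 3 probe sets stood between 0.39 and 1.8.

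Nuclear regulators went both ways. Of 67 genes of histone methylation, demethylation and chromatin remodelling, 4 were called higher (5.97%) and 10 lower (14.9%), at a median of -0.07. The remodellers Baz2b (-1.96 ± 0.33), Chd1 (-1.78 ± 0.28) and Chd9 (-1.62 ± 0.45) were lower, and the call of Chd9 was lost without non-translating array 2 or 3 or polysome array 1 or 2 (adjusted p up to 0.154). The histone demethylase Kdm5a had 106.8, 65.6 and 88.2 against 875.6, 1070 and 266.6 (2.87 ± 0.72, adjusted p = 0.0255), a call lost in 5 of the 6 fits without one array, all but that without polysome array 3 (adjusted p up to 0.103). Between 3 and 11 of the list were called lower without one array, 3 without non-translating array 2 or polysome array 2. Of 48 splicing factors, 9 were called lower (18.8%) and 2 higher (4.17%), at a median of -0.38. The serine and arginine rich factor Srsf5 stood at -2.32 ± 0.56, a call lost without non-translating array 2 or 3 or polysome array 1 or 2 (adjusted p up to 0.0864), and the small nuclear ribonucleoprotein cores Snrpf and Snrpe at -1.73 ± 0.36 and -1.30 ± 0.22, while Srrm2, a very large spliceosome protein, stood at 2.5 ± 0.51. Between 4 and 13 splicing factors were called lower without one array, 4 without polysome array 1.

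Genes of very large proteins, whose long reading frames can hold many ribosomes, were called in both directions. Of 63 genes of motors, spectrins and giant scaffolds, 4 were called higher (6.35%) and 8 lower (12.7%), at a median of -0.32. Tanc2, Tenm4, Map1b and the cadherin Celsr1 (1.36) were higher. Sptbn1, a spectrin of the membrane skeleton, was lower, with 1951, 2274 and 2111 against 528.7, 532.7 and 575.2 (-1.95 ± 0.32, adjusted p = 0.00287). The genomic span of a coding gene, a measure other than the length of its mRNA, went with a median of -0.08 in the shortest of 5 equal bins and 0.07, 0.10, 0.10 and 0.03 in the others, and 7.60% of the shortest bin were called lower against 4.10% to 5.09% in the rest.

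Imprinted genes gave 4 calls lower (15.4%) and 1 higher (3.85%) among 26, at a median of -0.30. Peg3, a paternally expressed zinc-finger gene, had 2927, 3812 and 3510 against 790.7, 775.8 and 925.3 (-2.03 ± 0.24, adjusted p = 0.000927). Its other probe sets stood at -0.15 and -1.58. Mirg, a maternally expressed microRNA host transcript, stood at -2.36 ± 0.44. Ndn, a growth suppressor of the MAGE family, was higher, with 3439, 2900 and 3232 against 6744, 5808 and 7243 (1.05 ± 0.25, adjusted p = 0.019), and lost its call without non-translating array 2 or 3 or polysome array 1 or 3 (adjusted p up to 0.0763). Igf2, the fetal growth factor, had 5242, 7390 and 6556 against 2143, 1382 and 3332 without overlap, but its difference of -1.56 ± 0.50 missed the threshold (adjusted p = 0.0715). Selenoproteins, whose UGA codons are read as selenocysteine, gave 1 call in each direction among 20 (5.00% each, against 8.89% higher and 5.68% lower of all genes), Txnrd3 at 1.62 ± 0.40 and Selenop at -1.13 ± 0.33, at a median of 0.04. Of 9 genes of polyamine synthesis, 1 was called lower (11.1%), the antizyme inhibitor Azin2 (-1.15 ± 0.29), and of 3 histone genes 0 were, Cenpa standing at -0.82 ± 0.36 and H3f3a at -0.06 ± 0.62. Calls of Txnrd3, Selenop and Azin2 were each lost without most arrays (adjusted p up to 0.0927, 0.180 and 0.0962).

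**Figure D5:**
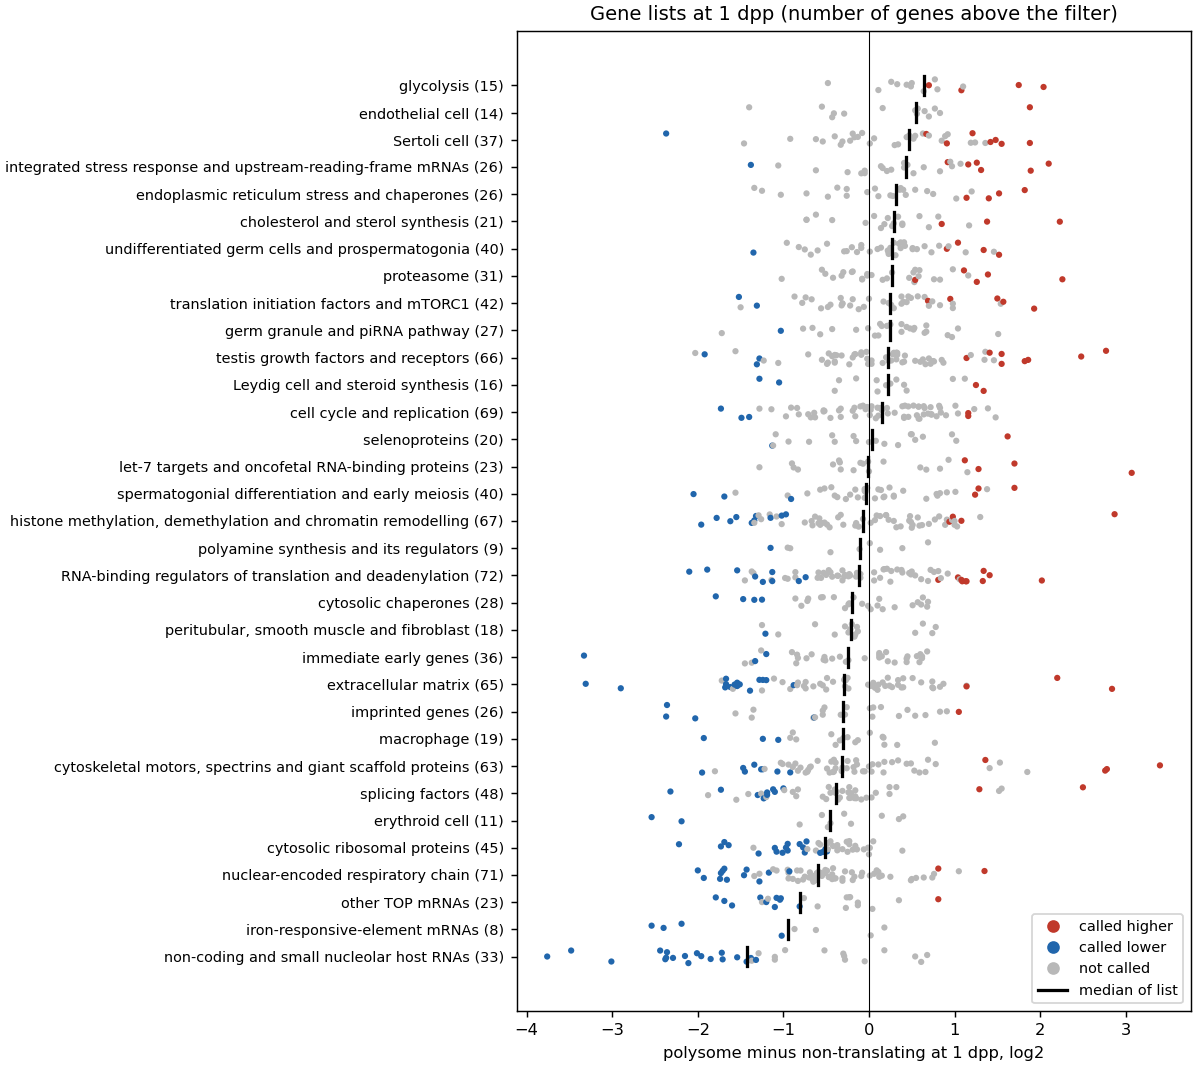
Polysome minus non-translating log2 difference (horizontal axis) of each gene in the lists with 8 or more genes above the filter, ordered by median, with the number of genes in brackets. Red points were called higher, blue lower and grey not called, and black bars are list medians, which run from -1.43 for the non-coding RNAs to 0.64 for glycolysis.

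Probe sets of one gene often disagreed. Of the 2003 called genes, 1095 had another probe set above the filter, and for 361 of these (33.0%) at least 1 had the opposite sign. The other 734 were of one sign throughout, 485 higher and 249 lower. Among the named genes, Kdm5a had other probe sets at -1.47 and 2.27, Srrm2 at -0.15 and -1.5, Sptbn1 at -1.48, 1.86 and -1.73, Baz2b at 1.65 and Psmd11 at 0.48, -0.47, 0.73, 0.27 and -0.19. Others stood at 0.40, -0.91 and -0.45 for Chd1, at -0.35, -0.21 and 0.89 for Fdft1, at 0.40, 0.49 and -0.19 for Sel1l, at 0.46, -0.72, -0.58 and -0.62 for Maf, at -0.19 and 0.35 for Mylk, and at 0.17 and -1.84 for Thbs2. They stood at 0.13 for Asz1, at 0.11 for Azin2 and between -0.96 and 0.01 for Hmmr. With Scap, Eif6, Ybx1, Gas5 and Airn, given above, 19 of the 131 named and called genes had a probe set of the opposite sign. Which transcript ends the probe sets detect was not examined. Of the 131 named genes that were called, 71 stayed called whichever array was left out. The 131 include genes named after their values were seen, such as Samm50 and Tyro3. The 131 leave out some called genes mentioned above, such as Ago1, Col1a1, Atp5d and Celsr1, so these counts do not cover them.

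The ratio at 4 dpp had the same sign for 1957 of the 2003 genes called at 1 dpp (97.7%). The same share over all 13752 genes is not given here, so how far this is particular to called genes is unknown. In the test of a change of the ratio between the ages, 1 of 45037 probe sets was called by limma (0.00222%), against 2157 (4.79%) at an unadjusted p under 0.05. That probe set belongs to Tex11, whose signals at 1 dpp were dim. Apart from it, no gene named here can be called particular to 1 dpp, and the values at both ages are given for a few. Tanc2 stood at 3.40 at 1 dpp and 3.03 at 4 dpp, Trim71 at 3.07 and 2.14, Amhr2 at 2.77 and 2.09, Sall4 at 1.52 and 0.79, Dancr at -3.76 and -2.44, Fth1 at -2.40 and -1.45, Naca at -1.79 and -0.66, and Rps3a1, a ribosomal protein named after its values were seen, at -1.29 and -0.31. For each of these 8 genes the difference was nearer 0 at 4 dpp, but none of the changes passed the test. These 8 do not stand for all named genes. Others stood further from 0 at 4 dpp, among them Creld2 at 1.82 and 2.25, and Dnajc3 at 1.52 and 1.96. Gars stood at 1.31 and 1.84, and Rhox13 at 1.24 and 1.75, also without passing the test.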

How the data were processed

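The deposited table holds linear signal intensities per probe set, made with MAS5 per the submitters' processing notes. The version of MAS5 and its scaling target are not given in the sources used here, so the scaling between arrays is unknown. The array has 45101 probe sets, of which 64 are controls. Of the remaining 45037, 34945 have 1 gene symbol in the platform annotation, 932 several and 9160 none, and only the first were named. The RefSeq gene table held the Entrez ID of 34741, gave the RNA class and changed 0 symbols.

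Signals were taken as log2(value + 1), which understates the difference of dim genes. One limma model (3.58.1, R 4.3.3, lmFit and eBayes with a trend) with 4 groups was fitted to the 12 arrays, and p-values were adjusted by Benjamini-Hochberg over 45037 probe sets, two-sided. A gene was its probe set with the highest mean over the 12 arrays, kept at or above the 40th percentile of mean log2 signal (4.12). The number of arrays limits the precision.

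Named genes were the 12 with the largest difference in each direction among called genes above the filter whose pools do not overlap and whose other probe sets have the same sign, without clone-like symbols, up to 4 called members of each of 34 lists (else the 2 brightest), and 28 fixed genes, of which Tuba1b and H19 were not tested. Further genes were named after their values were seen, among them Samm50, Tyro3, Tgoln1 and Tex11. Those of them that were called are included in the counts of named called genes, so these counts are not of a set chosen by rule alone. Members and lists were chosen with earlier results of these data known. RefSeq start-site sequences (GRCm38.p6) were used for 32851 starts. Nothing in the labels pairs same-numbered arrays of the pools, so no block was used. The fit was also run on simulated data, but the outcome is not given here and is not used as support. In all, 20 alternatives were run, among them scaling, pseudocount, filter, variance model and each array left out. Protein lengths were not used here.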

Additional observations from a re-analysis of the deposited data

Results flagged for a closer look

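The X-linked meiotic gene Tex11 was the only probe set of 45037 called for a change of the polysome ratio between the ages. At 1 dpp its signal was 17.0, 14.4 and 19.6 on the non-translating arrays and 7.89, 9.09 and 8.49 on the polysome arrays, a difference of -0.91 ± 0.20 (limma, adjusted p = 0.0117). At 4 dpp it was 34.6, 29.7 and 39.5 against 137.2, 146.3 and 155.5, a difference of 2.06 ± 0.20 (adjusted p = 0.00157). The change of the ratio was 2.97 ± 0.28 (adjusted p = 0.00371). All 6 signals at 1 dpp were below the median signal of their array, which ran from 23.0 to 26.1, and their mean log2 value of 3.70 was under the filter of 4.12, which the gene passed through its 4 dpp values. The direction at 1 dpp is thus read from dim signals. The 2157 probe sets at an unadjusted p under 0.05 are 4.79% of those tested.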

How the results depend on the processing

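Arrays left out one at a time gave between 845 and 1881 called genes, 529 to 1061 higher and 316 to 820 lower, and between 1894 and 3943 probe sets. Those left-out fits called 11 to 13 ribosomal proteins, 5 to 7 other TOP mRNAs, 7 to 14 respiratory chain genes, 2 to 4 mRNAs with an iron-responsive element and 56 to 63 long non-coding RNAs lower, and the median of the non-coding list ran from -1.65 to -1.42. Leaving out non-translating array 2 and polysome array 3 together, an alternative chosen after seeing the data, gave 756 called genes (493 higher, 263 lower), 1768 probe sets, and 7, 6, 3, 2 and 28 lower in the same groups, with 6 in the non-coding list. With the replicate block, 1223 genes were called (710 higher, 513 lower) and 2717 probe sets, and 102 of 131 named genes stayed called. Quantile normalization called 1174 genes lower and gave a ribosomal protein median of -0.26. The median of the non-coding list was -0.88 with a pseudocount of 64 and -1.72 with a filter at the 60th percentile. Polysome array 3 stood apart in several list medians, taken over the non-translating mean. On polysome arrays 1, 2 and 3 they were 0.08, 0.11 and 0.84 for endoplasmic reticulum stress. For germ granules they were 0.02, 0.09 and 0.71, and for prospermatogonia 0.14, 0.04 and 0.70. Chaperones stood at -0.49, -0.51 and 0.20, and splicing factors at -0.61, -0.65 and 0.07. The filter on the 1 dpp arrays alone, also chosen after seeing the data, left 2000 called genes and removed Tex11. Respiratory chain genes called lower were 29 with the 1 dpp arrays alone and 22 with the mean of a gene's probe sets. The causes were not tested. Under each of the 20 alternatives 0 of the named called genes reversed. All 131 were assessed, except 127 with the filter at the 60th percentile and 130 with the filter on the 1 dpp arrays. The 131 are genes called on these same arrays. Leaving out an array cannot turn the sign of a gene whose pools do not overlap, so the absence of reversals is not used as support. With the mean of a gene's probe sets, 111 stayed called. The labels do not say whether a replicate number marks a shared animal, gradient or batch, and the deviations of same-numbered arrays correlated at 0.6, -0.558 and 0.029, so 1 pair of 3 deviated together. Differently numbered arrays did so too, non-translating array 2 with polysome array 3 (0.65) and non-translating array 1 with polysome array 2 (0.553). Non-translating array 1 and polysome array 3 deviated in opposite directions (-0.668). The trends over protein length and the list medians after taking them away were not run, since protein lengths were not used here. Signal near the dim end and the number of arrays limit the precision.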
